A study of Rattus norvegicus with 18 samples.

Results

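Sodium, calcium and HCN channel genes were examined across 3 regions of the rat brain in animals exposed to chronic immobilization stress or handled without stress. The set comprised every gene whose symbol in the platform's probe-to-gene table began with Scn and a digit, with Cacn, or with Hcn and a digit, except Scn4b, and each gene was read through its probe set of highest mean. This gave 38 genes of the 14217 with a single symbol, covered by 54 of the 31099 probe sets. RNA from amygdala, hippocampus and cortex was hybridised to 18 Affymetrix expression arrays, 3 for each of the 6 groups: amygdala stress, amygdala handled, hippocampus stress, hippocampus handled, cortex stress and cortex handled. The labels give no strain, sex, age or duration of the stress. All arrays of a group carry the suffix e1 and the suffixes le1 to le3, which the labels do not explain, so the 3 arrays may be separate animals, pools or repeats of the same RNA, and p-values measure only the spread between arrays. The source field reads amygdala for every array, so regions were read from titles and descriptions and set against markers. The summed intensity of 6 hippocampal neuron markers was 2082 to 2282 on the handled hippocampus arrays and 718 to 784 on those of cortex, and 6 amygdala markers summed to 3828 to 4000.01 in handled amygdala against 925 to 957 in cortex, as the titles have it. The sum of 8 neocortex markers was not highest in cortex, at 2789 to 3005 in handled cortex, 3098 to 3390.2 in handled amygdala and 835 to 988 in handled hippocampus.

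Voltage-gated sodium channels open the upstroke of the action potential. Their pore is a single large subunit (Scn1a, Scn2a, Scn3a and Scn8a in central neurons), and smaller beta subunits (Scn2b, Scn3b) bind beside it and modify its gating and its placement in the membrane. Voltage-gated calcium channels couple depolarisation to transmitter release and gene regulation. Their pore subunits fall into L-type (Cacna1c, Cacna1d), P/Q- and N-type (Cacna1a, Cacna1b), R-type (Cacna1e) and T-type (Cacna1g, Cacna1h, Cacna1i) classes, and alpha2delta and beta subunits carry them to the membrane. Most Cacng genes expressed in brain encode TARPs, which traffic AMPA receptors rather than calcium channels. HCN channels open on hyperpolarisation and carry a pacemaker current that damps dendritic input, and in hippocampal and cortical neurons their trafficking depends on Pex5l, also called TRIP8b.

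Of the 38 genes, 24 lay at or above the 40th percentile of mean signal, which corresponded to an intensity of 30.1, and were tested. The other 14 had mean intensities between 2.53 and 26.3, and their changes were not read. These were the sodium channel pore genes Scn4a, Scn7a, Scn9a, Scn10a and Scn11a, best known from muscle, glia or sensory neurons, the calcium channel pore genes Cacna1e, Cacna1f, Cacna1i and Cacna1s, Cacng1, Cacng4, Cacng5 and Cacng6, and Hcn4. Cacna1e (mean 10.1) and Cacna1i (26.3) are known to be active in brain neurons, and a dim probe set does not show that the transcript was low. Tested genes just above the limit were Cacng7 (mean 33.4), Scn8a (37.3) and Hcn3 (37.9). A gene bright in a single region could pass the limit through that region alone.

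Region accounted for far more of the variation of these genes than stress did. Over the 18 arrays the region held a median of 53.1% of a gene's sum of squares on the log2 scale, against 36.2% over all 18625 probe sets tested, and stress or handling held a median of 2.05% against 3.04%. The region's share was highest for Scn3b (99.5%), Cacna2d3 (97.6%) and Cacnb2 (96.6%), and lowest for Cacna1d (7.44%). Of the 24 genes, 14 (58.3%) had over 50% of their variation between regions, as had 36.2% of all probe sets.

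**Figure D1:**
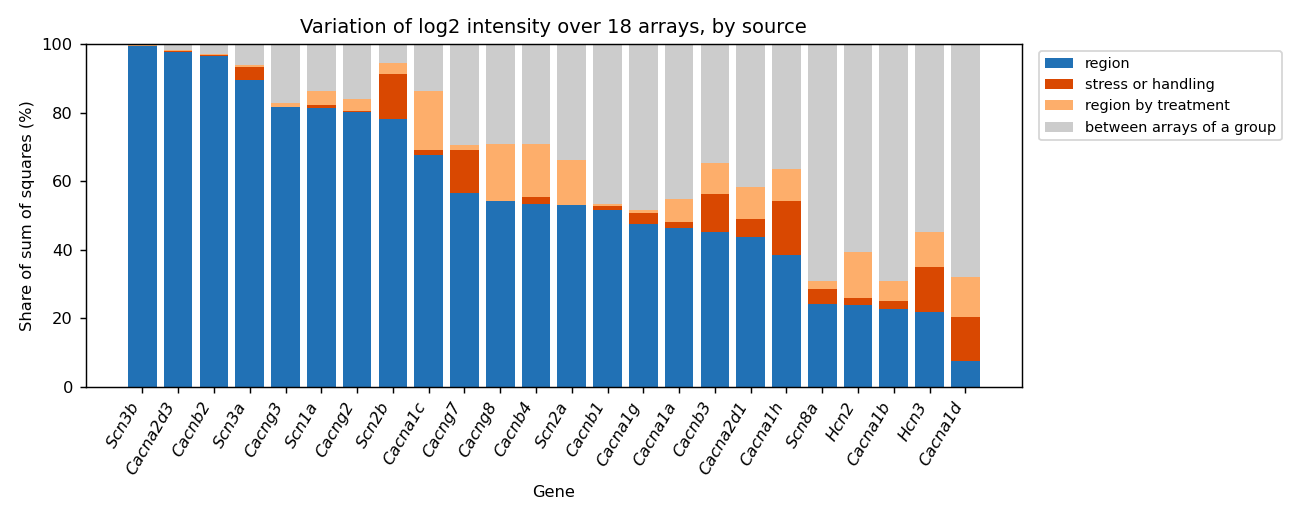
Stacked bars give, for each of the 24 tested genes, the share (%) of the sum of squares of log2 intensity over 18 arrays that lay between regions, between stress and handling, in their interaction, and between arrays of a group. Region fills nearly the whole bar for Scn3b, Cacna2d3 and Cacnb2, and the spread between arrays fills most of it for Cacna1b, Cacna1d, Scn8a, Hcn2 and Hcn3.

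The comparisons that included the hippocampus held the most calls, among these genes and among all probe sets. Between handled hippocampus and handled cortex 9 of the 24 genes (37.5%) passed limma's test at an adjusted p under 0.05. Of these 5 were higher and 4 lower in hippocampus, where 25.9% of all probe sets passed (12.2% higher and 13.6% lower). Between handled amygdala and handled hippocampus 11 (45.8%) passed, 4 higher and 7 lower in amygdala (28.4% of all probe sets, 15.5% higher and 12.9% lower). Between handled amygdala and handled cortex 3 (12.5%) passed, all lower in amygdala (14.7% of all probe sets, 8.14% higher and 6.56% lower). These comparisons share groups of arrays and are given side by side. RNA integrity was read from array controls, whose 3′ over 5′ excess (log2) widens as RNA degrades. On handled amygdala, hippocampus and cortex arrays it was 2.07 ± 0.08 (SD, n = 3), 1.54 ± 0.23 and 1.66 ± 0.05 for beta-actin. For GAPDH it was 0.45 ± 0.04, 0.26 ± 0.10 and 0.29 ± 0.04, and for hexokinase 0.83 ± 0.08, 1.02 ± 0.11 and 1.11 ± 0.09. Amygdala was highest for beta-actin and GAPDH and lowest for hexokinase. The median absolute log2 difference of the 24 genes was 0.45 for hippocampus against cortex and 0.42 for amygdala against hippocampus, where all probe sets had 0.20 and 0.21. In whole tissue, a larger share of cells with the transcript and more transcript per cell cannot be told apart. The summed intensity of 10 general neuron markers was also higher in handled hippocampus (25747 to 26955) than in cortex (22419 to 23330.5) and amygdala (23294 to 23928), with 4 of them called as higher and 1 as lower against cortex. The sum of 10 oligodendrocyte markers was 22865 to 25405 in handled hippocampus, 11813 to 12385 in cortex and 17533 to 18597 in amygdala, and all 10 passed as higher against cortex. That of 8 inhibitory neuron markers was 3016 to 3140.1, 4606 to 4908 and 5171 to 5312, with 5 called as lower in hippocampus than in cortex. None of these markers was listed at 0. The sum of 9 meningeal fibroblast markers was 4663 to 4933 in handled cortex, 2036 to 2227 in hippocampus and 1169 to 1257 in amygdala. Against cortex 9 of them were called as lower in hippocampus and 8 in amygdala. The part of cell composition or RNA integrity in the region differences was not tested.

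The sodium channel beta subunit Scn3b showed the largest difference of the 24 genes from hippocampus to both other regions. Its intensities in handled hippocampus were 3137, 3086 and 3314, against 1311, 1316 and 1312 in handled cortex and 1130.2, 1083 and 1096 in handled amygdala. The hippocampus arrays lay far above all others, and those of amygdala lay below those of cortex with no overlap. The mean in hippocampus was 2.42-fold that of cortex (log2 difference 1.26 ± 0.05, adjusted p = 1.88e-14) and 2.88-fold that of amygdala. The amygdala minus cortex difference was -0.25 ± 0.05 (adjusted p = 0.00231). A second probe set of Scn3b gave a hippocampus minus cortex difference of 1.54 ± 0.08, also called. For amygdala minus cortex it gave -0.13 ± 0.08 and was not called (adjusted p = 0.320). Scn2b, the other beta subunit measured, had 1291, 1184 and 1285 in handled hippocampus, 989.5, 913 and 857 in handled cortex and 996, 925 and 916 in handled amygdala. Its hippocampus arrays were again above both other regions (hippocampus minus cortex 0.44 ± 0.07, adjusted p = 2.26e-05), and cortex and amygdala overlapped.

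Among the sodium channel pores, Scn3a, which is prominent in the developing brain, went the other way. Handled hippocampus had 209, 212 and 229, handled cortex 376, 392 and 412 and handled amygdala 429.9, 410.3 and 477. Every hippocampus array lay below every array of the other regions (hippocampus minus cortex -0.82 ± 0.10, adjusted p = 1.08e-06, and amygdala minus hippocampus 0.97 ± 0.10, adjusted p = 8.94e-08). Scn1a, the pore that dominates in parvalbumin interneurons and is mutated in Dravet syndrome, was lower in handled amygdala (338, 323 and 334) than in handled cortex (379.9, 407 and 392) and hippocampus (381, 421 and 379). The differences were small, -0.23 ± 0.07 against cortex (adjusted p = 0.0353) and -0.24 ± 0.07 against hippocampus (adjusted p = 0.0200). The call against cortex was lost without any 1 of the 3 amygdala handled or 3 cortex handled arrays (adjusted p 0.0561 to 0.129), and that against hippocampus without amygdala handled 2 (-0.22, adjusted p = 0.0676) or hippocampus handled 2 (-0.19, adjusted p = 0.0998). Scn2a, the main pore of excitatory neurons, differed little, at 827 ± 38.9 (SD, n = 3), 941 ± 27.9 and 841 ± 21.4 in handled hippocampus, cortex and amygdala. Its hippocampus minus cortex difference of -0.18 ± 0.06 passed (adjusted p = 0.0350), and it lost the call without hippocampus handled 2 or 3 or any cortex handled array (log2 difference -0.20 to -0.16, adjusted p 0.0504 to 0.129). Scn8a, the pore of the axon initial segment, was dim and passed in no comparison between regions. In the order of rat genes Scn2a and Scn3a are direct neighbours, as are Scn1a, Scn9a and Scn7a.

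Of the 2 alpha2delta and 4 beta subunits tested, 1 of each was called between handled hippocampus and cortex. Cacna2d3, an alpha2delta subunit, had 964, 1011 and 1017 in handled hippocampus, 507, 528 and 502 in handled cortex and 394, 412 and 431 in handled amygdala, 3 levels without overlap. The log2 differences were 0.94 ± 0.08 for hippocampus minus cortex (adjusted p = 1.08e-09), -1.24 ± 0.08 for amygdala minus hippocampus (adjusted p = 9.79e-12) and -0.30 ± 0.08 for amygdala minus cortex (adjusted p = 0.00721). Its relative Cacna2d1, the target of gabapentin, did not pass in any of them (-0.23 ± 0.10 for hippocampus minus cortex, adjusted p = 0.0835). Cacnb2, a beta subunit, had 366, 394 and 391 in handled hippocampus against 209, 229 and 227 in cortex and 225, 222 and 236 in amygdala. The hippocampus arrays were higher without overlap (hippocampus minus cortex 0.75 ± 0.08, adjusted p = 1.81e-07), and cortex and amygdala did not differ beyond their spread. Both further tested probe sets of Cacnb2 had the same sign, and 1 of them was called in this comparison. Of the other beta subunits, Cacnb3 was higher in handled amygdala than in handled hippocampus (431 ± 29.0 against 330.3 ± 17.9, log2 difference 0.37 ± 0.10, adjusted p = 0.00653), and Cacnb1 and Cacnb4 passed in no handled comparison. For Cacnb1 the array hippocampus handled 1 (255) lay far above the other handled hippocampus arrays (118 and 117). Without it Cacnb1 was called as higher in amygdala than in hippocampus (0.81, adjusted p = 0.000257) and than in cortex (0.47, adjusted p = 0.0172). That array is not part of the cortex comparison, whose difference stayed at 0.47 with a standard error of 0.13 in place of 0.19. A second tested probe set of Cacnb1 had the opposite sign in the fit of all arrays. It gave -0.44 ± 0.19 (adjusted p = 0.0838) for amygdala minus hippocampus and -0.04 ± 0.19 for amygdala minus cortex.

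The promoters of 4 genes whose level followed the region are shown, the first 3 higher in hippocampus than in cortex and amygdala and the last lower. Each is the run of 250 bases before the annotated start, 5′ to 3′ on the strand of the gene, from RefSeq on GRCr8, and capitals mark the Sp1 box GGGCGG or its complement CCGCCC, alone or overlapping. The windows are Scn2b at chr8:54322133-54322382 (plus strand), Cacna2d3 at chr16:4918900-4919149 (minus strand), Cacnb2 at chr17:82472965-82473214 (plus strand) and Scn3a at chr3:70666199-70666448 (minus strand).
Scn2b: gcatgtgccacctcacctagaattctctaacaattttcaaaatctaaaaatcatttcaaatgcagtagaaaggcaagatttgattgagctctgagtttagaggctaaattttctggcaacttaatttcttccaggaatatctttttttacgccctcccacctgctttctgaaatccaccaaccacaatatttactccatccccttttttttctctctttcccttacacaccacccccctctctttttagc
Cacna2d3: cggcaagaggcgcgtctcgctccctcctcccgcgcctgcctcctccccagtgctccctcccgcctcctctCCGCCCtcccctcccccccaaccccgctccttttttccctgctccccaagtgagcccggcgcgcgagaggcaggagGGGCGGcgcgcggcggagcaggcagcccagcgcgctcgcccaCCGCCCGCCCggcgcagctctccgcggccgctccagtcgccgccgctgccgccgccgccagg
Cacnb2: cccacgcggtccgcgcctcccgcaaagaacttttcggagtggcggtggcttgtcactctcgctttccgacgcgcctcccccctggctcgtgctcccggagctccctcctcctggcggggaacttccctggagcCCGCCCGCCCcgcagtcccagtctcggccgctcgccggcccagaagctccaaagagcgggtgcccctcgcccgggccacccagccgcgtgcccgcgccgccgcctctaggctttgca
Scn3a: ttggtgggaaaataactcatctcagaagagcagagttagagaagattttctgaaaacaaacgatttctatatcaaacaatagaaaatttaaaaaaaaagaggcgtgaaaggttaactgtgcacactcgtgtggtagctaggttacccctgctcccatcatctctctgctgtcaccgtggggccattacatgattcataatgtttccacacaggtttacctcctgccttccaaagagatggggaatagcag

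The windows of Cacna2d3 and Cacnb2 are rich in G and C (78.8% and 73.2%) and hold 4 and 2 Sp1 boxes. Those of Scn2b and Scn3a are not (38.8% and 41.6%) and hold none of these letters, so the genes higher in hippocampus did not share this feature. Promoters were matched for 26 of the 38 genes, with a median G and C content of 61.0% against 51.2% over 33469 promoters. An Sp1 box, searched on both strands, was present in 13 of the 26 (50%) and in 30.5% of all. The cyclic AMP response element TGACGTCA was in none of the 26 and in 1.59% of all promoters, and the glucocorticoid receptor palindrome was in none of the 26 and in 4 of all. In these comparisons only the first listed promoter of each of the 26 genes was used, against every listed promoter for the whole. These letters describe the windows and say nothing of binding.

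Among the calcium channel pores both tested T-type genes passed. Cacna1g, a T-type pore known for burst firing in thalamic relay neurons, had 73.7, 52.2 and 95.9 in handled amygdala and 31.3, 2.34 and 40.5 in handled hippocampus (log2 difference 1.27 ± 0.39, adjusted p = 0.0168), with 66.1, 9.74 and 73.0 in handled cortex. The amygdala arrays lay above the hippocampus arrays, and cortex handled 2 and hippocampus handled 2 lay far below the other arrays of their groups. Without hippocampus handled 2 the call was lost (0.77, adjusted p = 0.144), as it was without amygdala handled 3 (1.10, adjusted p = 0.0782). The summed intensity of 7 thalamus markers was also higher in handled amygdala (984 to 1134) than in handled hippocampus (548 to 659.6), none of them listed at 0, and its part in the level of Cacna1g was not tested. Cacna1h, another T-type pore, had the opposite order, 97.2 ± 10.8 in handled hippocampus against 65.1 ± 10.8 in amygdala and 64.9 ± 4.51 in cortex. Both differences passed narrowly (adjusted p = 0.0372 and 0.0415). Against cortex the call was lost without any single hippocampus or cortex handled array (adjusted p 0.0533 to 0.143), and against amygdala without amygdala handled 1 or 3 or hippocampus handled 2 or 3 (adjusted p 0.0575 to 0.134). The call against cortex was also lost with the replicate block (0.48, adjusted p = 0.0513), an offset of 1 (0.57, adjusted p = 0.0506), no filter (0.48, adjusted p = 0.0795) and median centring (0.47, adjusted p = 0.0545). The L-type pores Cacna1c and Cacna1d, the P/Q-type pore Cacna1a and the N-type pore Cacna1b passed in no handled comparison. Cacna1a had 4 tested probe sets, and for hippocampus minus cortex 2 of those not used here were called as higher in hippocampus (1.05 ± 0.23 and 0.67 ± 0.19), so the gene's level in handled hippocampus depends on the probe set.

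Of the 4 TARP genes tested, Cacng3 and Cacng2 passed in handled arrays. Cacng3 was lowest in handled hippocampus (227, 209 and 251), intermediate in handled amygdala (354, 319 and 298) and highest in handled cortex (419, 402 and 422), with no overlap between the 3 groups. The hippocampus minus cortex difference was -0.82 ± 0.14 (adjusted p = 0.000125) and that of amygdala minus hippocampus 0.47 ± 0.14 (adjusted p = 0.0164), the latter lost without amygdala handled 1 (0.41, adjusted p = 0.0766) or hippocampus handled 2 (0.41, adjusted p = 0.0709). Cacng2, which encodes stargazin, was higher in handled hippocampus than in handled amygdala (213 ± 12.3 against 136 ± 4.84, amygdala minus hippocampus -0.60 ± 0.13, adjusted p = 0.00110). Its second probe set showed no such difference (-0.01) and the call was lost with the mean of both (-0.30, adjusted p = 0.0840). Cacng7 and Cacng8, neighbours in the genome, did not pass in handled arrays. Hcn2, one of the main HCN subunits of brain, did not pass between handled regions (123 ± 20.6, 122 ± 17.4 and 142 ± 8.09 in amygdala, hippocampus and cortex), and the 95% confidence interval of the difference was -0.49 to 0.08 for hippocampus minus cortex and -0.28 to 0.29 for amygdala minus hippocampus. Hcn3 had 2.74, 45.9 and 16.1 in handled hippocampus and 48.6, 42.8 and 42.6 in handled cortex, and passed as lower in hippocampus (-0.86 ± 0.30, adjusted p = 0.0398). The groups overlapped, and hippocampus handled 1 lay far below the others. Without it the difference was -0.44, adjusted p = 0.292, and the call was also lost without hippocampus handled 3 or any cortex handled array (adjusted p 0.0799 to 0.108).

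**Figure D2:**
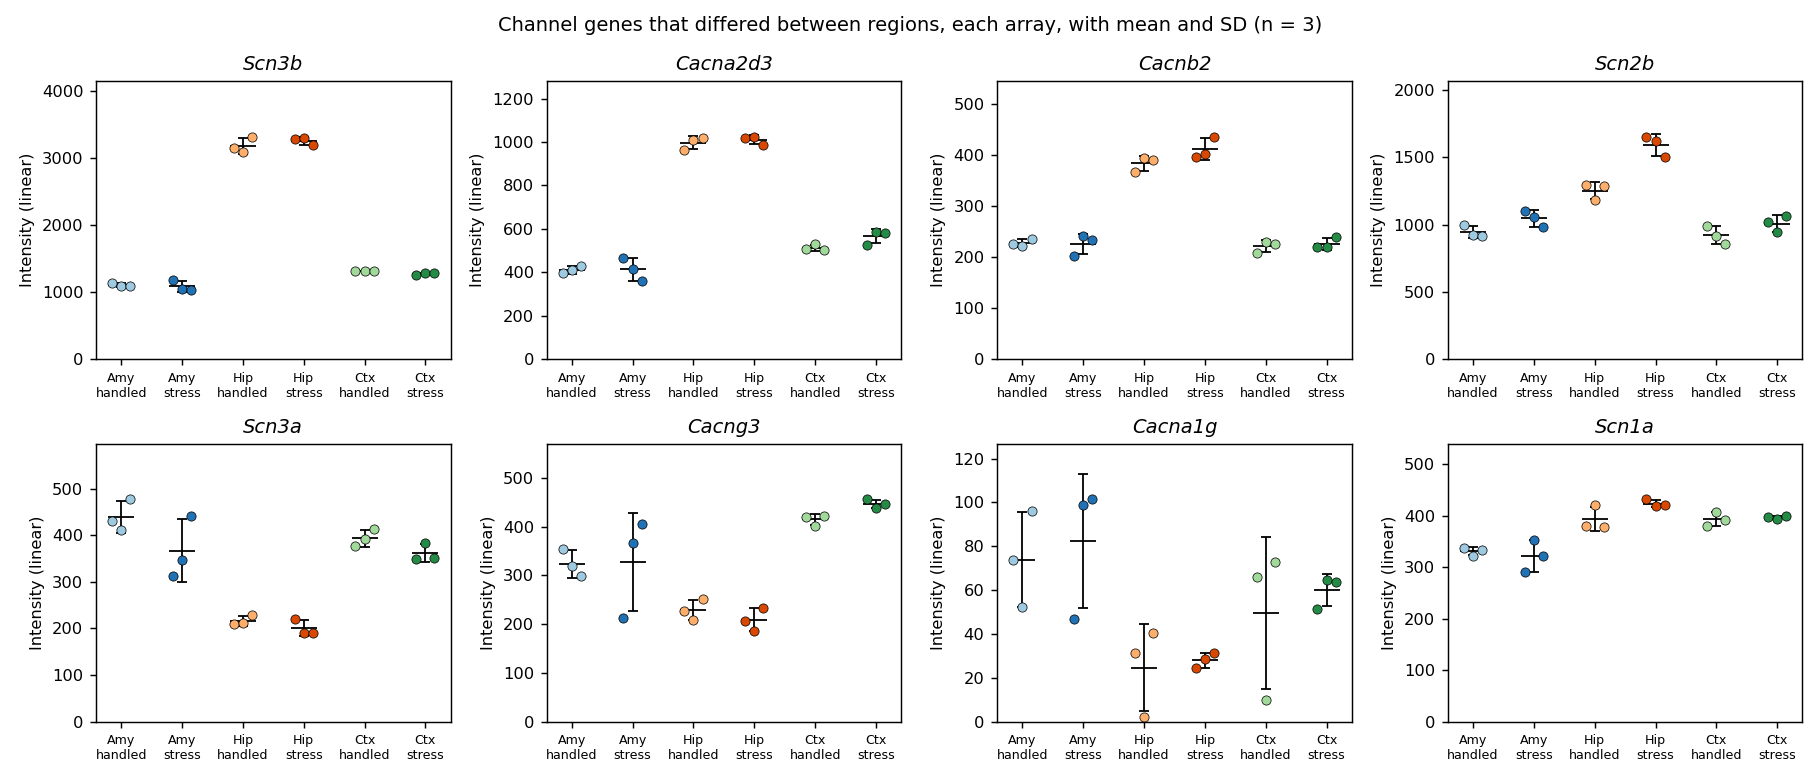
Points are the linear intensity of each of the 3 arrays of a group (Amy, amygdala; Hip, hippocampus; Ctx, cortex) for 8 genes, with the group mean and SD as black bars. Scn3b, Cacna2d3, Cacnb2 and Scn2b were brightest in hippocampus under handling and stress, and Scn3a and Cacng3 had their lowest group means there.

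The stress arrays, which share no array with the handled ones, showed the main region differences in the same direction. Both sets were tested in the same fit with a shared spread per probe set, so their calls are not independent. Called genes common to handled and stress arrays numbered 6 for hippocampus against cortex, which was 66.7% of the 9 called in each. For amygdala against hippocampus 9 were common, 81.8% of the 11 in handled and 69.2% of the 13 in stress arrays. For amygdala against cortex all 3 called in handled arrays were among the 6 called in stress arrays. The same overlap is not given for all probe sets, so these shares have no background. In the stress arrays 37.5%, 54.2% and 25% of the tested genes passed in these comparisons, in the order given. Of all probe sets 25.3%, 27.8% and 19.8% passed there. Every common gene kept its direction. Scn3b in the stress arrays was higher in hippocampus than in cortex by 1.34 ± 0.05, Cacna2d3 by 0.82 ± 0.08, Cacnb2 by 0.82 ± 0.08 and Scn2b by 0.65 ± 0.07, and Scn3a (-0.80 ± 0.10) and Cacng3 (-1.04 ± 0.14) were lower. Hcn3 (-0.16 ± 0.30), Cacna1h (0.08 ± 0.17) and Scn2a (-0.04 ± 0.06) did not pass there. For amygdala against hippocampus Cacnb3 (0.18 ± 0.10) and Cacna1h (-0.32 ± 0.17), called in handled arrays, did not pass in stress arrays. Calls made in the stress arrays alone included Cacnb4, a beta subunit, lower in amygdala than in cortex (-0.94 ± 0.21, adjusted p = 0.00302), and Cacng8 (-1.08 ± 0.22, adjusted p = 0.000554) and Cacna1a (-0.98 ± 0.26, adjusted p = 0.00612), lower in amygdala than in hippocampus. The tests of a difference in stress effect called none of these genes, as given further on.

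**Figure D3:**
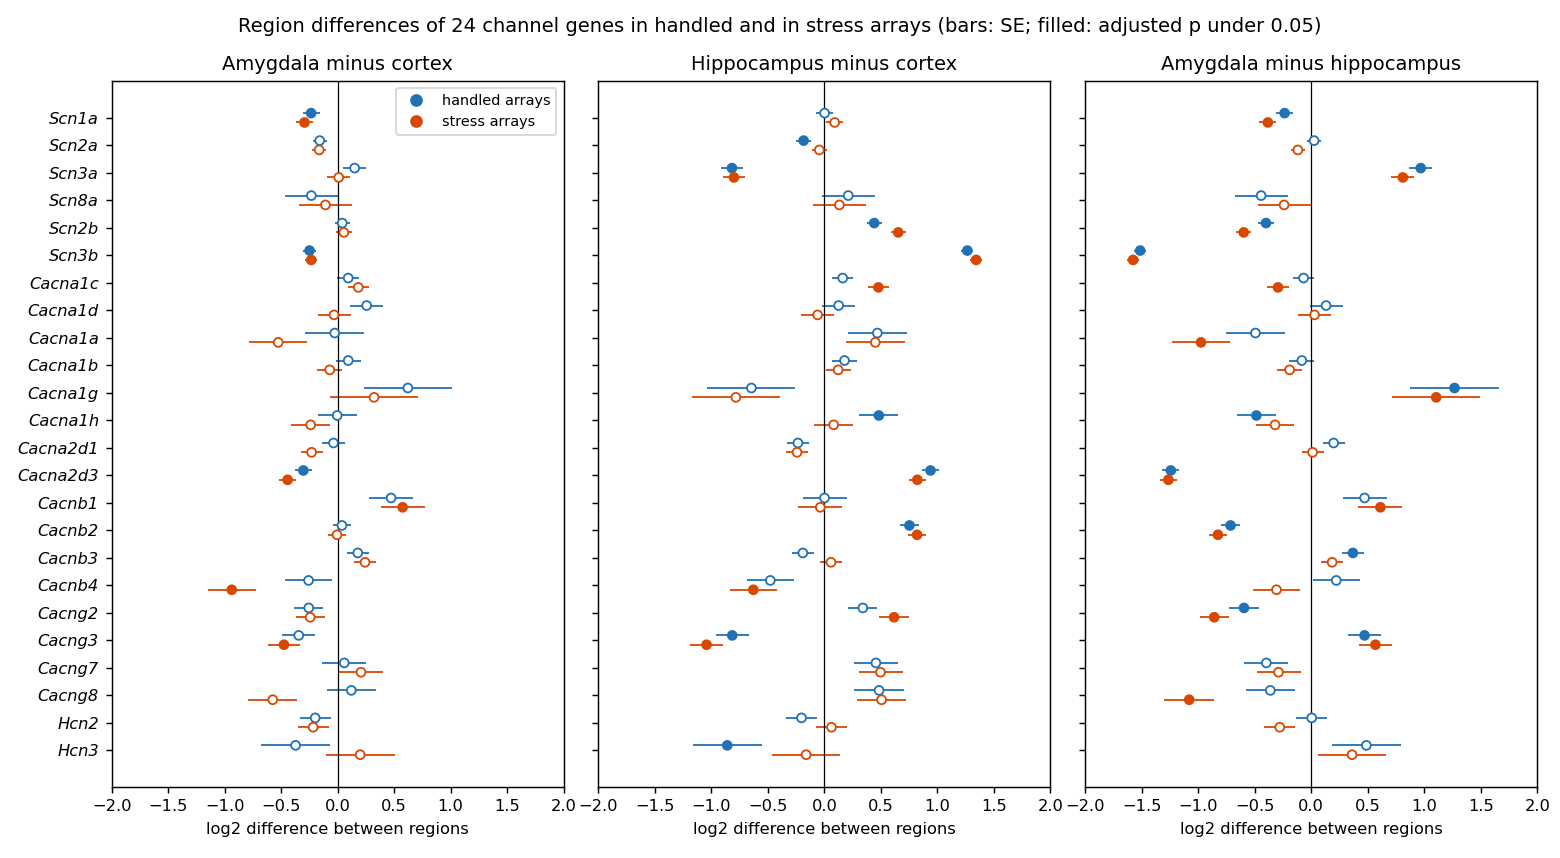
Each row is a tested gene, and the log2 difference between regions is given for handled arrays (blue) and stress arrays (orange) with its standard error, filled where the adjusted p was under 0.05. The blue and orange points lie close together for Scn3b, Cacna2d3, Cacnb2 and Scn3a, and apart for Cacnb4 and Cacng8 where amygdala was compared.

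Of the 24 genes, 1 passed in a comparison of stress with handling. In the hippocampus 1 of 24 passed, the beta subunit Scn2b, where 0.36% of all probe sets passed. Its intensities were 1654, 1619.9 and 1501 on the stress arrays and 1291, 1184 and 1285 on the handled arrays. Every stress array was above every handled array, and the mean was 1.27-fold higher (log2 change 0.34 ± 0.07, 95% confidence interval 0.20 to 0.48, adjusted p = 0.0231). Stress and handled hippocampus arrays were apart, in either direction, for 3 of the 24 genes and for 14.2% of all probe sets. In amygdala the stress arrays had 1102, 1060.2 and 979 and the handled arrays 996, 925 and 916, which overlapped (0.14 ± 0.07, adjusted p = 0.353), and in cortex 1017, 942 and 1062 and 989.5, 913 and 857, which overlapped too (0.13 ± 0.07, adjusted p = 0.544). Averaged over the 3 regions Scn2b was the only 1 of the 24 to pass (0.20 ± 0.04, adjusted p = 0.00274, 4.66% of all probe sets). The stress effect on Scn2b did not pass as different between regions (adjusted p = 0.623 for amygdala against hippocampus and 0.865 for hippocampus against cortex).

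The rise of Scn2b in hippocampus rested on narrow margins. The call was lost without hippocampus stress 1 (0.31, adjusted p = 0.0801), without hippocampus stress 2 (0.33, adjusted p = 0.0924) and without hippocampus handled 2 (0.30, adjusted p = 0.105), with no variance trend (0.34, adjusted p = 0.123), with the mean of both probe sets (0.21, adjusted p = 0.669) and in a fit of the hippocampus arrays by themselves (0.34, adjusted p = 0.0905). A second, dim probe set of Scn2b (mean intensity 70.6) changed by 0.07 ± 0.31 in hippocampus and had the opposite sign for the average over regions (-0.12 ± 0.18). In the same stress hippocampus arrays the summed intensity of 7 choroid plexus and ependyma markers was 3576 to 3794 against 1304 to 1397 after handling, with 2 of them called as higher, that of 10 oligodendrocyte markers 19357 to 21695 against 22865 to 25405, with 2 called as lower, and that of 10 general neuron markers 26438 to 29947 against 25747 to 26955. No marker was listed at 0, and the part of tissue composition in the rise of Scn2b was not tested.

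In the amygdala none of the 24 genes passed, where 2.4% of all probe sets did. At an unadjusted p under 0.05 limma gave 4, Cacnb4, Cacng8, Scn2b and Scn3a, where 13.7% of all probe sets had such a p. Of the 24 log2 changes 20 were below 0, against 47.8% of those of all probe sets, with a median of -0.04 against 0.01 over all probe sets. In hippocampus 7 of the 24 were below 0 (49.2% of all probe sets) and in cortex 12 (49.8%), with medians of 0.05 and 0.005. In amygdala Scn3a had 313, 347 and 442 after stress and 429.9, 410.3 and 477 after handling. These overlapped through amygdala stress 3 (log2 change -0.26 ± 0.10, adjusted p = 0.228). Without that array the change was -0.40, adjusted p = 0.0225, and Scn3a passed. The beta subunit Cacnb4 (25.5 ± 6.53 against 43.2 ± 8.42, log2 change -0.51 ± 0.21, adjusted p = 0.259) and the TARP Cacng8 (24.8 ± 8.65 against 40.3 ± 9.51, -0.47 ± 0.22, adjusted p = 0.341) were lower on all 3 stress arrays than on all handled ones without passing, and both are dim. Stress and handled amygdala arrays were apart, in either direction, for only these 2 of the 24 genes and for 16.6% of all probe sets. The 3′ probe set of the array's hexokinase control exceeded the 5′ one by 1.23 ± 0.07 (log2, SD, n = 3) on the stress amygdala arrays and by 0.83 ± 0.08 on the handled ones, a gap that widens as RNA degrades. The same gap was 0.45 ± 0.08 and 0.45 ± 0.04 for the GAPDH control and 2.15 ± 0.24 and 2.07 ± 0.08 for beta-actin, whose arrays did not separate stress from handling. The 11 striatal neuron markers on the array summed to 5486 to 5778 on the stress amygdala arrays and 4348 to 4737 on the handled ones, with 2 called as higher. The part of RNA integrity or tissue composition in these values was not tested.

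In the cortex none of the 24 passed (0.403% of all probe sets did), and limma gave 1 at an unadjusted p under 0.05, where 10.2% of all probe sets had such a p. It was the beta subunit Cacnb3 (323 ± 22.2 against 379 ± 7.72, -0.22 ± 0.10, adjusted p = 0.429). On the cortex arrays the summed intensity of 9 meningeal fibroblast markers was 2029 to 2124 after stress and 4663 to 4933 after handling, with 7 called as lower. The part of tissue composition in the cortex values was not tested. In hippocampus 3 had an unadjusted p under 0.05 (10.9% of all probe sets), Scn2b and the pores Cacna1c (0.22 ± 0.10, adjusted p = 0.415) and Cacna1h (-0.40 ± 0.17, adjusted p = 0.389). Tests of whether the stress effect differed between regions called none of the 24 genes, where 0.0483% of all probe sets passed for amygdala against hippocampus, 0.129% for amygdala against cortex and 0.0859% for hippocampus against cortex. At an unadjusted p under 0.05 limma gave 1, 2 and 2 genes in these 3 tests, where 8.06%, 9.76% and 5.63% of all probe sets had such a p. The width of the intervals limits what absent calls show. The 95% confidence interval of the stress effect lay within 0.5 log2 of 0 for 16 of the 24 genes in amygdala, 16 in hippocampus and 17 in cortex. It was narrow for bright genes such as Scn3b (-0.14 to 0.08 in amygdala, -0.08 to 0.14 in hippocampus and -0.16 to 0.07 in cortex) and Scn2a (-0.17 to 0.09, -0.03 to 0.24 and -0.17 to 0.10), and wide for dim ones such as Cacna1g (-0.70 to 0.91, -0.54 to 1.07 and -0.40 to 1.21).

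**Figure D4:**
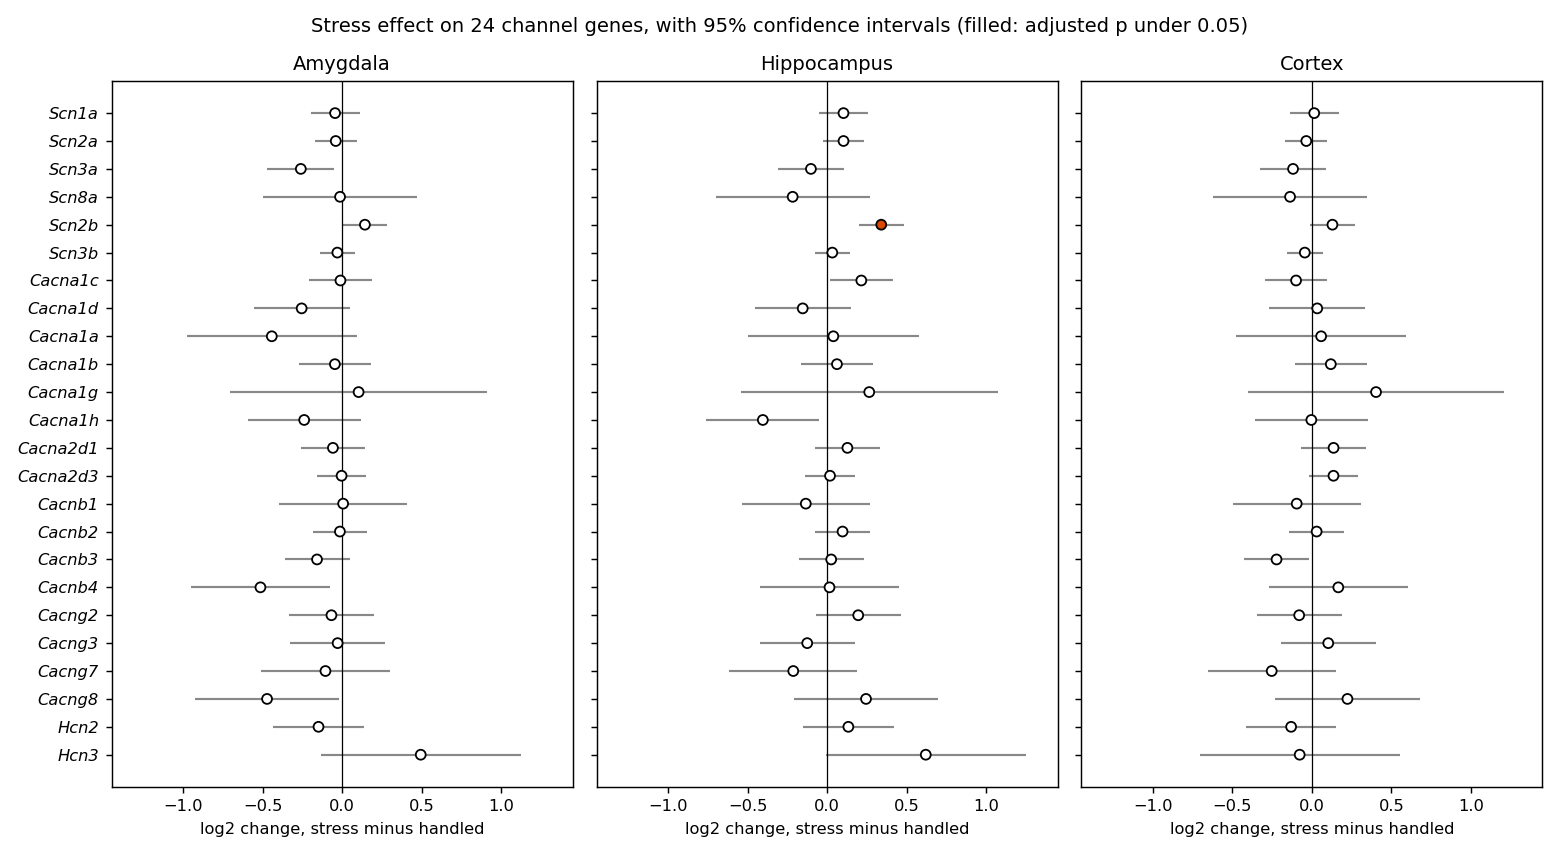
Points are the log2 change, stress minus handled, of the 24 tested genes in each region, with 95% confidence intervals, and a filled point has an adjusted p under 0.05. Scn2b in hippocampus is the only filled point, and the intervals of Cacna1g and Hcn3 are the widest.

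Hcn2 did not pass in any region (-0.15 ± 0.14 in amygdala, 0.13 ± 0.14 in hippocampus and -0.13 ± 0.14 in cortex, adjusted p = 0.695, 0.777 and 0.814), nor did the dim Hcn3 (0.49 ± 0.30, 0.62 ± 0.30 and -0.08 ± 0.30). Their partner Pex5l did. Its intensities in amygdala were 130.3, 167 and 183 after stress and 266, 288 and 318 after handling, and in hippocampus 101, 90.0 and 121 and 151, 173 and 177. In both regions every stress array was below every handled array. Arrays were apart in this way, in either direction, for 16.6% of all probe sets in amygdala and 14.2% in hippocampus. In cortex the values were 228, 187 and 223 and 224, 223 and 213, which overlapped. Pex5l fell in amygdala (log2 change -0.81 ± 0.12, adjusted p = 0.000482) and in hippocampus (-0.62 ± 0.12, adjusted p = 0.0211) and did not pass in cortex (-0.05 ± 0.12, adjusted p = 0.937). The difference of the amygdala and cortex effects was -0.76 ± 0.17 and missed the threshold (adjusted p = 0.0877). That of the hippocampus and cortex effects was -0.56 ± 0.17 (adjusted p = 0.551), and that of amygdala and hippocampus -0.19 ± 0.17 (adjusted p = 0.824). A second probe set of Pex5l lay below the limit of signal. The call in amygdala was lost only with the mean of both probe sets (-0.69, adjusted p = 0.141) among 29 alternatives. That in hippocampus was lost in 8 of 29, among them the runs without hippocampus stress 1 (-0.60, adjusted p = 0.0654), hippocampus stress 2 (-0.53, adjusted p = 0.126), hippocampus handled 2 (-0.59, adjusted p = 0.0837) and hippocampus handled 3 (-0.58, adjusted p = 0.0699). The amygdala arrays with low Pex5l were those with the larger hexokinase difference given above, and the 11 striatal neuron markers on the array, 2 of which passed as higher, summed to 5486 to 5778 against 4348 to 4737 after handling. The GAPDH and beta-actin gaps given above did not separate these arrays. In hippocampus the gap was 1.17 ± 0.15 after stress and 1.02 ± 0.11 after handling for hexokinase, 0.23 ± 0.13 and 0.26 ± 0.10 for GAPDH, and 1.61 ± 0.31 and 1.54 ± 0.23 for beta-actin. The part of RNA integrity or tissue composition in the fall of Pex5l was not tested.

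**Figure D5:**
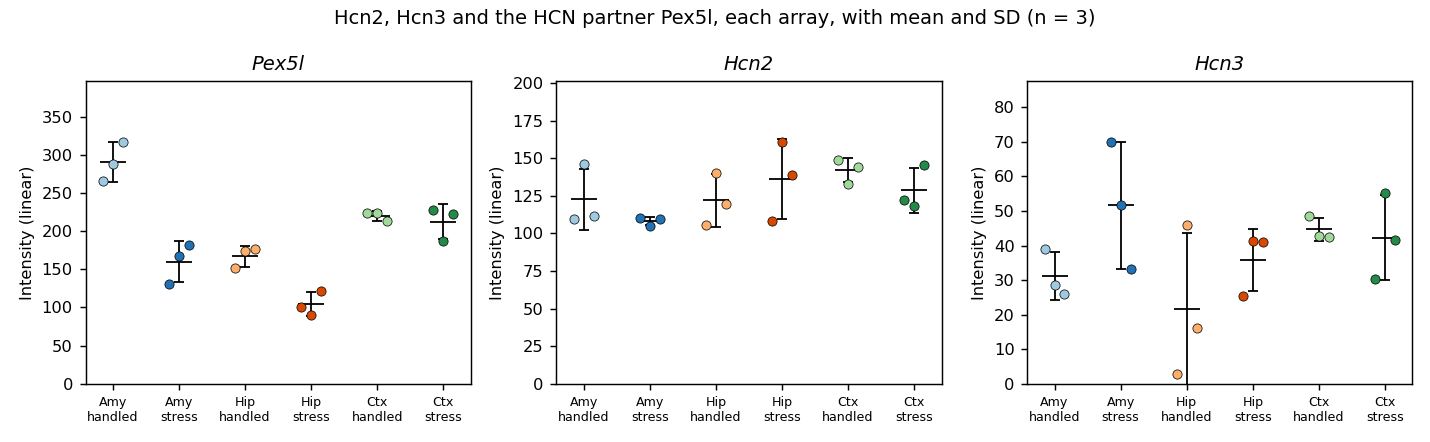
Points are the linear intensity of each of the 3 arrays of a group for Pex5l, Hcn2 and Hcn3, with the group mean and SD as black bars, cut at 0 for Hcn3. Pex5l sits lower on the stress arrays of amygdala and hippocampus, and Hcn2 shows no such separation.

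Pex5l was the only one of the channel partners to pass within a region. The list held 40 genes that anchor, regulate or bind these channels, such as ankyrins, fibroblast growth factor homologues, calmodulins, small GTPases of the RGK family and release-site proteins, and 29 of the 35 on the array were tested. In amygdala 1 was lower and none higher (2.4% of all probe sets passed), in hippocampus 1 was lower and none higher (0.36%), and in cortex none passed (0.403%), with 4 partners at an unadjusted p under 0.05 there in limma's fit (10.2% of all probe sets). The median changes were -0.03, 0.02 and -0.02. Averaged over regions 2 were lower (4.66% of all probe sets passed), Pex5l (-0.49 ± 0.07, adjusted p = 0.000127) and Nedd4, a ubiquitin ligase (-0.17 ± 0.04, adjusted p = 0.00840). Of 4 further tested probe sets of Nedd4, 3 had the opposite sign. The averaged call of Nedd4 was lost with no variance trend (-0.17, adjusted p = 0.0661) and with the mean of all its probe sets (-0.06, adjusted p = 0.639), and that of Pex5l with the mean of its probe sets (-0.38, adjusted p = 0.0934). Between handled hippocampus and cortex 10 of the 29 partners were higher and 4 lower in hippocampus, where 12.2% of all probe sets were higher and 13.6% lower.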

How the data were processed

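Expression was measured on 18 Affymetrix arrays of rat brain RNA. The authors deposited 1 value table with a linear signal intensity for each of 31099 probe sets and each array; the software that summarised it is not given in the sources used here. Every array has the same trimmed mean, 150.04 to 150.05 with 2% trimmed at each end, so values had been scaled per array before deposit, and a shift common to all genes cannot be seen. Array medians were 49.1 to 56.4, and no 2 arrays were identical. The number of arrays limits the precision. Probe sets were named from the platform annotation, in which 20832 have 1 gene symbol, 436 several and 9831 none.

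After removing 57 control probe sets, log2(intensity + 16) of the 18625 probe sets at or above the 40th percentile of the mean was fitted with limma 3.58.1 in R 4.3.3, with 6 group means and a variance trend. The model has 12 residual degrees of freedom and treats arrays as independent, although the labels do not say whether the regions came from the same animals. P-values were adjusted by Benjamini-Hochberg over all probe sets tested, with a threshold of 0.05. Errors beside log2 values are standard errors from this fit, and errors beside intensities are SD over 3 arrays. Log2 differences on the offset scale understate those of dim genes. The fit was tested on simulated data.

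The genes and lists were chosen with earlier results of these data known. By the rule for named genes, all 38 could be named. Single arrays were given for genes past the threshold in a stress comparison and for the 3 with the largest called difference in each handled comparison of regions. Values of single arrays for Cacnb2, Scn3a and Cacng3 were added after their values were seen. Partners were named where past the threshold in a stress comparison. Arrays of the same number in different groups shared little deviation: over 45 such pairs, deviations from the group means correlated at -0.0444 to 0.1. These pairs include stress arrays set against handled ones, and regions of an animal could carry other numbers. The correlations therefore do not show whether regions came from the same animals. Alternatives changed the offset, the filter, the scaling, the variance trend, the probe set, the block and the arrays included.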

Additional observations from a re-analysis of the deposited data

How the results depend on the processing

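The count of 0 in cortex and the count of 0 for the differences of stress effects held under every alternative run. The single call in hippocampus became 0 with no variance trend, with the mean of all probe sets of a gene and with only the arrays of the regions compared. Leaving out 1 array gave 0 to 1 in hippocampus, 0 to 1 in amygdala (1, Scn3a, without amygdala stress 3) and 1 to 2 for the average over regions (2 without amygdala stress 3, where Scn3a joined Scn2b). The average count was 0 with the mean of all probe sets, since the second, dim probe set of Scn2b has the opposite sign there. Between handled amygdala and cortex 3 genes were called, against 6 in the stress arrays. The replicate block left the counts at 0, 1, 0 and 1 for amygdala, hippocampus, cortex and their average and at 3, 9 and 11 for the handled comparisons, but for hippocampus against cortex Cacna1h lost its call (adjusted p = 0.0513) and Cacng2 gained one (0.34, adjusted p = 0.0474); it changed no other call of these genes. As to pairing, each array's correlations with arrays of other groups were averaged by array number. The array's own number, of the 3, gave the highest mean for 5 of 18 arrays. No direction of a called gene reversed under any alternative. The region calls of Scn3b, Cacna2d3, Cacnb2, Scn2b and Scn3a held in all 30 alternatives, as did that of Cacng3 for hippocampus against cortex, whereas Scn1a against cortex was lost in 7 of 30 and against hippocampus in 3 of 30, Scn2a in 7 of 30, Cacna1h against cortex in 11 of 28 and Hcn3 in 9 of 28. Fitting only the arrays of the regions compared could not be applied to the average or to the differences of stress effects. Quantile normalization moved the median of all probe sets by less than 0.1 in every comparison, as did median centring except for amygdala minus hippocampus in the stress arrays, where the shift was -0.11. Some calls were gained when 1 array was left out: Cacng3 for amygdala minus cortex without amygdala stress 1 (-0.34, adjusted p = 0.00782), Cacng2 for hippocampus minus cortex without hippocampus stress 1 (0.34, adjusted p = 0.0389), without hippocampus stress 3 (0.34, adjusted p = 0.0491) or without cortex stress 1 (0.34, adjusted p = 0.0402), Cacna2d1 for hippocampus minus cortex without cortex handled 1 (-0.33, adjusted p = 0.0230), Cacna1g for hippocampus minus cortex without cortex handled 2 (-1.22, adjusted p = 0.0128), Hcn3 for amygdala minus hippocampus without hippocampus handled 2 (0.93, adjusted p = 0.0137) and Cacna1a for amygdala minus hippocampus without hippocampus handled 2 (-0.75, adjusted p = 0.0461). For Cacng3 and Cacng2 the array left out was not part of the comparison, so the difference was unchanged and its standard error was smaller. That of Cacng3 was 0.09 in place of 0.14. The cause of the remaining changes was not tested. Dim probe sets limit the rest: 14 of the 38 genes were not tested, and the widest intervals belong to genes of low signal.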
